A study of Homo sapiens with 6 samples.

Results

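GANAB, the catalytic alpha subunit of endoplasmic reticulum glucosidase II, was examined with 9 genes that act beside it in glycoprotein folding: PRKCSH, MOGS, UGGT1, CANX, CALR, PDIA3, EDEM1, HSPA5 and HSP90B1. GANAB was chosen by its log2 differences, high in both NRF3 siRNA comparisons and near 0 in the overexpression comparison, so its own values are a description and were not tested. The partners were chosen by role. Of the 10 genes, 9 had a probe set annotated to them alone, among 18417 genes so measured. The probe sets that list PDIA3 also list the pseudogene PDIA3P1, and PDIA3 was not analysed here.

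The study holds 6 groups of cultured cells with 1 array each. HCT116 cells, from a human colon cancer, and HCT116-p53KO cells, which lack p53, received siRNA against NRF3 or control siRNA, and RNA was taken 48 h after transfection. H1299 cells, from a human lung carcinoma, stably carried an NRF3 or a GFP plasmid. NRF3, the product of NFE2L3, is a CNC-family transcription factor. The sources used here do not give the siRNA sequences or their number, nor say whether the stable cells are clones or pools. Levels below are RMA log2 intensities, on which 1 unit is 2-fold, and a difference within a line has no replicate check. Where 2 differences are given without a line, the first is from HCT116 and the next from HCT116-p53KO.

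N-linked glycans reach new proteins in the endoplasmic reticulum with a branch that ends in glucose residues. MOGS (glucosidase I) removes the outermost glucose, and glucosidase II, a dimer of GANAB and the beta subunit PRKCSH, removes those that follow. The monoglucosylated form is bound by the lectin chaperones CANX and CALR, which bring in the disulfide isomerase PDIA3. UGGT1 puts a glucose back on misfolded proteins, so that they return to the lectins, while EDEM1 directs misfolded glycoproteins to degradation. HSPA5 (BiP) and HSP90B1 (GRP94) are the Hsp70 and Hsp90 chaperones of the same compartment and known targets of the unfolded protein response.

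NFE2L3 followed the labels, at 6.62 with NRF3 siRNA against 8.97 with control siRNA in HCT116, and 7.15 against 8.71 in HCT116-p53KO, and at 10.20 with NRF3 against 8.18 with GFP in H1299. The mean difference of sorted values between any HCT116-family and any H1299 array was at least 0.779, against at most 0.070 within either set. No gene's level was therefore compared between these sets. Of 10 colon epithelial markers 7 reached 6 on every HCT116-family array, and VIL1, CDH17 and KRT20 did not. On both H1299 arrays 4 of these 10 reached 6 (CDX1, CDX2, KRT8 and KRT18). Of 5 mesenchymal and lung markers, 2 reached 6 on both H1299 arrays, VIM and CDH2, while the lung markers NKX2-1, SFTPB and NAPSA did not. On every HCT116-family array 2 of these 5 also reached 6, VIM and NAPSA. Array medians were at least 6.95 in the HCT116 family and at most 6.08 in H1299. The cutoff of 6 is therefore not alike for both sets, and these counts were not compared between them. With NRF3 siRNA, limma over the HCT116-family arrays called 3 of the 7 colon markers tested, beside 9.88% of all genes (4.45% rose and 5.43% fell). All 3 were lower: CDH1, KRT8 and KRT18, with estimates of -0.60, -0.62 and -0.51. The limit of this fit, given below, holds for them too. EPCAM (-0.18), CDX1 (0.069), CDX2 (0.11) and LGALS4 (0.11) did not pass, and the part of these markers in the results below was not tested.

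GANAB was higher on both NRF3 siRNA arrays. Its level was 11.61 with NRF3 siRNA against 10.17 with control siRNA in HCT116, a difference of 1.44 or 2.72-fold. In HCT116-p53KO it was 11.57 with NRF3 siRNA against 10.25 with control siRNA, a difference of 1.32 or 2.50-fold. Both siRNA arrays stood above both control arrays, and the lines lay close together. In H1299 GANAB was at 10.00 with NRF3 against 9.92 with GFP, a difference of 0.081. Among expressed genes, meaning a log2 intensity of at least 6 on either array compared, GANAB ranked 3 of 14034 from the top in HCT116, 8 of 13680 in HCT116-p53KO and 4358 of 11304 in H1299.

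**Figure D1:**
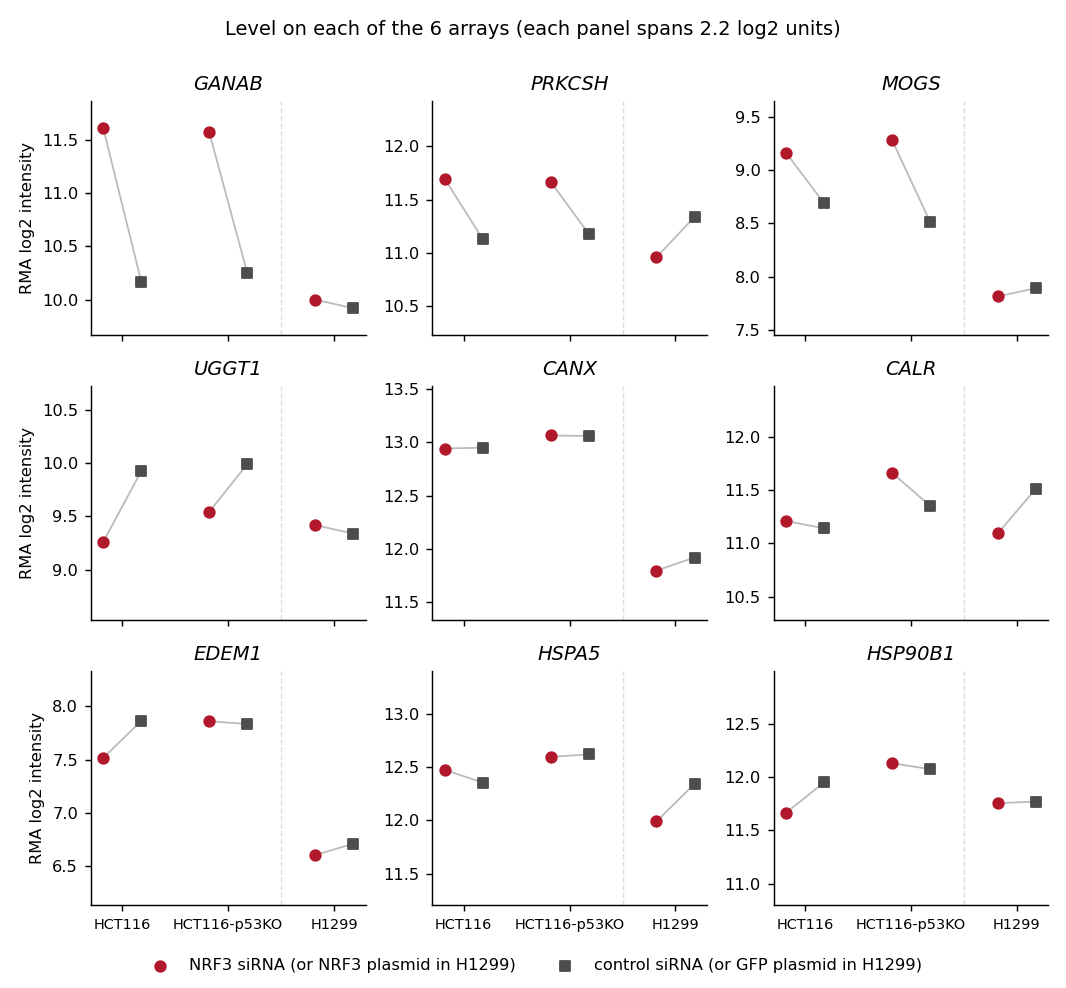
RMA log2 intensity of each gene on the 6 arrays, 1 point per array, with NRF3 siRNA or NRF3 plasmid before its control in each cell line. GANAB stood at 11.61 and 11.57 with NRF3 siRNA against 10.17 and 10.25 with control siRNA, and the H1299 levels are on another scale.

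The sequences before the genes' starts are shown for GANAB and for chaperones that hold a stress element. RefSeq windows (GRCh38.p14) matched 8 of the 10 genes, all but MOGS and PDIA3, and the 250 bases before each start were searched on both strands. The stress element ERSE, CCAAT and CCACG with 9 bases between them, is known to bind NF-Y and ATF6. It was found in windows of 4 of the 8 genes, CANX, CALR, HSPA5 and HSP90B1, and of 0.0916% of 27305 genes. The core of the antioxidant response element, TGACNNNGC, bound by CNC factors with small MAF proteins, was found for GANAB, CANX and CALR, and for 13.2% of all genes. ERSE-II, ATTGG and CCACG with 1 base between them (0.0659% of genes), and TGACGTGG, a core of the XBP1 element (0.78%), were in none of the 8. Each is written 5′ to 3′ on the gene's strand, and capitals mark the antioxidant element match in GANAB, 197 to 189 bases before the start, and the outer letters of ERSE, in either orientation, in the others.
GANAB, chr11:62646614-62646863, minus strand: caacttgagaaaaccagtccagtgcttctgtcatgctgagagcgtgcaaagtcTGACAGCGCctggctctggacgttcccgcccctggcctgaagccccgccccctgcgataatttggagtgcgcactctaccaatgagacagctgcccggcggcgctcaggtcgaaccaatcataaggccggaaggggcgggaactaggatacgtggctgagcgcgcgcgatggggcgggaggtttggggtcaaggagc
HSPA5, chr9:125241344-125241593, minus strand: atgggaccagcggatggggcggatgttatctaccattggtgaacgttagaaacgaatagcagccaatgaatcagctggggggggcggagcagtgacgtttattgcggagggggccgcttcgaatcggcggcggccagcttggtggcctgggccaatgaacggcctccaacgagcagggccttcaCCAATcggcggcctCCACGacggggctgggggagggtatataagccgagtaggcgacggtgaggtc
HSP90B1, chr12:103930160-103930409, plus strand: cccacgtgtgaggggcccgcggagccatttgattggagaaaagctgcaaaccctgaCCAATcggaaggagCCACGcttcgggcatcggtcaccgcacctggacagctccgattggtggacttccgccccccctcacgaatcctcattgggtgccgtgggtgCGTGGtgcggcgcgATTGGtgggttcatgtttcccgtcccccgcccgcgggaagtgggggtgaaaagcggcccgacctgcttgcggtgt
CALR, chr19:12938359-12938608, plus strand: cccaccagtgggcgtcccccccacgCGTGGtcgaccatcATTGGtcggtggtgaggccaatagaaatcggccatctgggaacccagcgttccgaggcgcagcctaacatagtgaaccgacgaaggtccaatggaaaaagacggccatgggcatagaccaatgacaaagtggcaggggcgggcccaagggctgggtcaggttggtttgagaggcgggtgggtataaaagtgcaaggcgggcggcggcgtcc
CANX, match alone, 151 to 133 bases before the start of its first window, chromosome 5: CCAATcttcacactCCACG
These are matches of letters, and binding was not measured.

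The other glucosidase genes were also higher with NRF3 siRNA. PRKCSH was at 11.70 with NRF3 siRNA against 11.13 with control siRNA in HCT116, and 11.67 against 11.18 in HCT116-p53KO, differences of 0.57 and 0.49. MOGS was at 9.16 with NRF3 siRNA against 8.69 with control siRNA in HCT116, and 9.28 against 8.51 in HCT116-p53KO, differences of 0.47 and 0.77. For both genes the siRNA arrays lay above both controls, as they did for 21.1% of 14148 genes. UGGT1, which returns proteins to the lectins, went the other way, at 9.26 with NRF3 siRNA against 9.92 with control siRNA in HCT116, and 9.54 against 9.99 in HCT116-p53KO, differences of -0.66 and -0.45. Its siRNA arrays lay below both controls, as for 20.1% of genes. Its paralog UGGT2 differed by -0.46 and 0.13. PRKCSH overlaps ODAD3 in the RefSeq table, whose own probe set differed by 0.27 and -0.06. In H1299 ODAD3 differed by -0.75, at 5.58 with NRF3 against 6.33 with GFP.

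limma, fitted across 14148 genes of the 4 HCT116-family arrays with cell line as a block, called 3 of the 8 partners at a Benjamini-Hochberg adjusted p of 0.05, against 9.88% of all genes (4.45% rose and 5.43% fell). PRKCSH rose by 0.53 (limma adjusted p = 0.0167), MOGS rose by 0.62 (limma adjusted p = 0.00283) and UGGT1 fell by 0.56 (limma adjusted p = 0.0103), each ± 0.16 (SE) and the same way in both lines. This fit has 1 residual degree of freedom, and limma gave every gene the same spread. With the spread prior of the 6-array fit instead, limma called 0 genes and 0 partners (1822 genes and 3 partners at an unadjusted p of 0.05), with adjusted p-values of 0.235 for PRKCSH, 0.195 for MOGS and 0.226 for UGGT1. Over the other alternatives limma's adjusted p was 3.66e-05 to 0.0413 for PRKCSH, 0.00043 to 0.0255 for MOGS and 0.000754 to 0.043 for UGGT1. Calls of NRF3 siRNA effects in the HCT116 lines below come from this 4-array fit and share its limit.

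**Figure D2:**
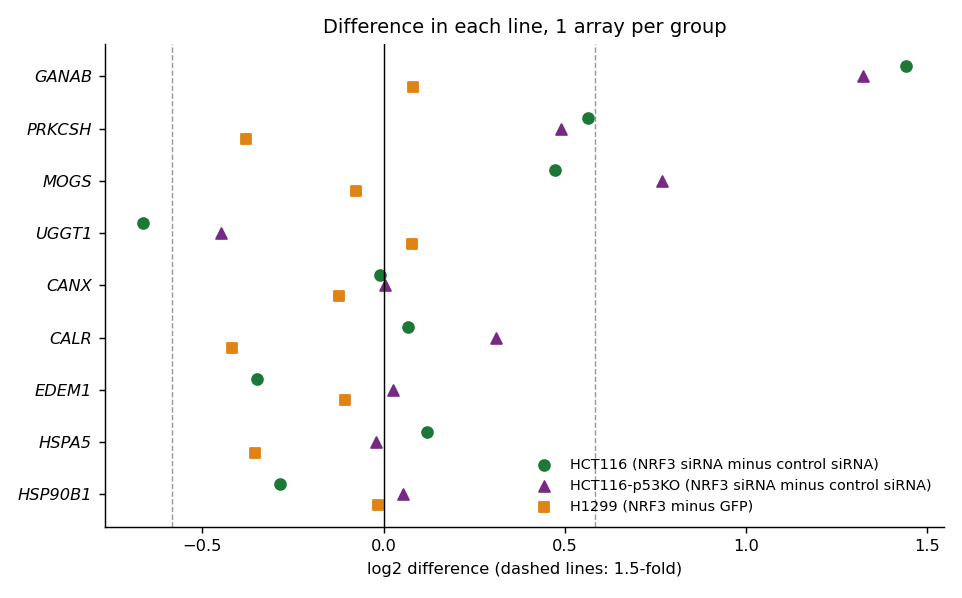
Log2 difference of each gene, NRF3 siRNA minus control siRNA in HCT116 and HCT116-p53KO and NRF3 minus GFP in H1299, 1 array per group. GANAB lay at 1.44 and 1.32 and UGGT1 at -0.66 and -0.45 in the HCT116 lines, and every H1299 point lay within the dashed 1.5-fold lines.

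The lectins, EDEM1 and the Hsp70 and Hsp90 chaperones did not pass the test. CANX was at 12.94 with NRF3 siRNA against 12.95 with control siRNA in HCT116, and 13.06 against 13.06 in HCT116-p53KO. CALR was at 11.21 with NRF3 siRNA against 11.14 with control siRNA in HCT116, and 11.66 against 11.35 in HCT116-p53KO. HSPA5 was at 12.47 with NRF3 siRNA against 12.35 with control siRNA in HCT116, and 12.60 against 12.62 in HCT116-p53KO. In these 3 genes, and in HSP90B1 and EDEM1 below, the siRNA and control arrays overlapped. Arrays did not overlap for the 21.1% of all genes above and the 20.1% below both controls. HSP90B1 was at 11.67 with NRF3 siRNA against 11.95 with control siRNA in HCT116, and 12.13 against 12.08 in HCT116-p53KO. EDEM1 was at 7.52 with NRF3 siRNA against 7.86 with control siRNA in HCT116, and 7.86 against 7.83 in HCT116-p53KO. For HSP90B1 and EDEM1 the lines differed in sign, as they did for CANX (-0.0088 and 0.0044) and HSPA5 (0.12 and -0.022). The limma estimates of these 5 genes ran from -0.16 for EDEM1 to 0.19 for CALR, each ± 0.16 (SE), with adjusted p-values from 0.605 to 0.999. The 4 genes with an ERSE match are among these 5.

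Apart from GANAB, which was chosen for its size, 1 of 8 genes reached 1.5-fold in each HCT116 line. In HCT116 it was UGGT1, lower, beside 8.74% of 14034 expressed genes (2.71% higher and 6.02% lower). PRKCSH, at 0.57 under the threshold of 0.58, passed it there with repeated quantile normalization (0.62) and with loess (0.62). In HCT116-p53KO it was MOGS, higher, beside 6.0% of 13680 genes (3.63% higher and 2.38% lower). GANAB was that much higher in both lines, by its choice, as were 1.18% of 13566 genes. The median difference of the 8 partners was 0.03 in HCT116 and 0.041 in HCT116-p53KO, beside 0.012 and 0.0028 for all genes.

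**Figure D3:**
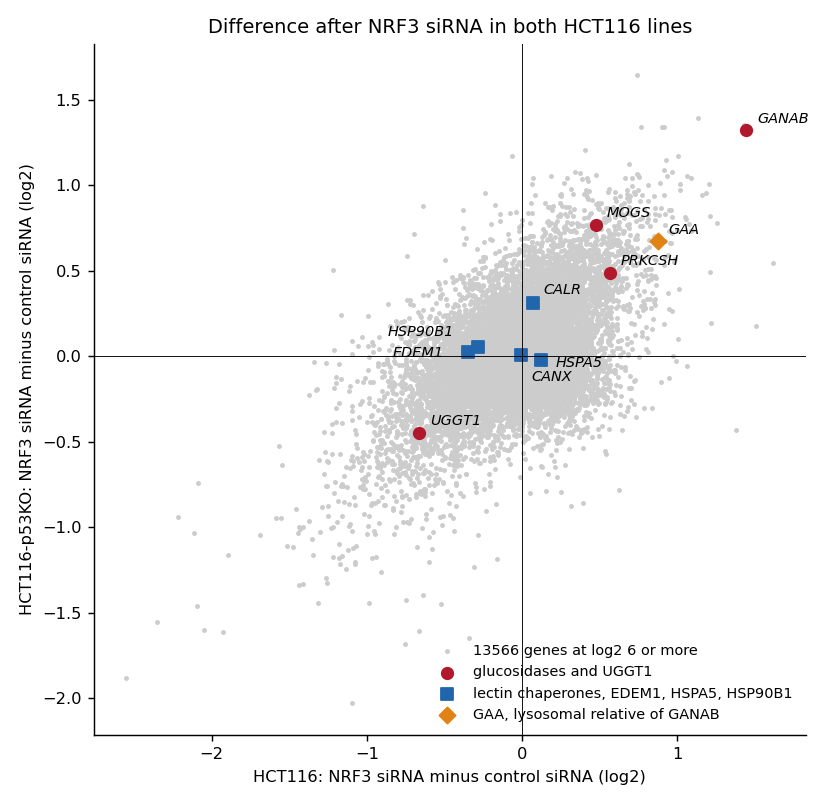
Log2 difference after NRF3 siRNA in HCT116 (horizontal) and HCT116-p53KO (vertical) for 13566 genes expressed in both comparisons, 1 grey point per gene. GANAB lies at 1.44 and 1.32, MOGS at 0.47 and 0.77, PRKCSH at 0.57 and 0.49 and UGGT1 at -0.66 and -0.45.

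The difference between the siRNA effects, HCT116 less HCT116-p53KO, ran from -0.37 for EDEM1 to 0.14 for HSPA5, with HSP90B1 at -0.34 and GANAB at 0.12. All 9 lay inside the 10th to 90th percentile of all genes (-0.43 to 0.35), and 1 array per group allows no test of it. Between the control siRNA arrays, which serve the comparisons above too, HCT116-p53KO minus HCT116 ran from -0.17 for MOGS to 0.26 for HSPA5. None of the 9 reached 1.5-fold there, against 4.32% of 13827 genes.

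In H1299 none of the 9 genes differed by 1.5-fold, against 9.02% of 11304 genes. CALR had 11.09 with NRF3 against 11.51 with GFP, a difference of -0.42. PRKCSH had 10.96 with NRF3 against 11.34 with GFP (-0.38), and HSPA5 had 11.99 against 12.34 (-0.35). The other partners lay between -0.12 for CANX and 0.08 for UGGT1, and 7 of the 8 partners were lower, where 49.4% of all genes were higher. Over all 6 arrays, more NRF3 against less, limma called 0 of the 8 partners and 0.0069% of 14492 genes, which is NFE2L3 alone (1615 genes at an unadjusted p of 0.05). The limma estimates were -0.48 for PRKCSH (adjusted p = 0.301), -0.44 for MOGS (adjusted p = 0.381) and 0.40 for UGGT1 (adjusted p = 0.394). Each had 1 direction in all 3 lines, but in H1299 MOGS (-0.077) and UGGT1 (0.080) lay under 0.23, the spread of 1 difference. PRKCSH, MOGS and UGGT1 passed an unadjusted p of 0.05. Without the HCT116 arrays, or without those of HCT116-p53KO, PRKCSH alone passed it.

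GAA, the lysosomal acid alpha-glucosidase, belongs to the same glycoside hydrolase family as GANAB. It was at 9.32 with NRF3 siRNA against 8.45 with control siRNA in HCT116, and 9.05 against 8.38 in HCT116-p53KO, and rose by 0.77 ± 0.16 (SE; limma adjusted p = 0.0001). In H1299 it differed by -0.039. MYORG, another relative, differed by -0.093, 0.044 and 0.18 in the 3 lines.

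Genes beside GANAB on chromosome 11 did not differ as a block. Of the 5 genes on each side in RefSeq order, 7 were measured and 1 was called, beside 9.88% of all genes. INTS5, 235 bases away, differed by 0.28 and 0.015. B3GAT3, a glycosaminoglycan linker enzyme 2843 bases away on the other side, differed by -0.82 and -0.042. EML3, a microtubule-associated protein, rose by 0.67 ± 0.16 (SE; limma adjusted p = 0.00102), with differences of 0.42 and 0.92. ROM1, which lies between EML3 and B3GAT3, differed by 0.015 and -0.036, and SNORA57 by 0.61 and 0.088.

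**Figure D4:**
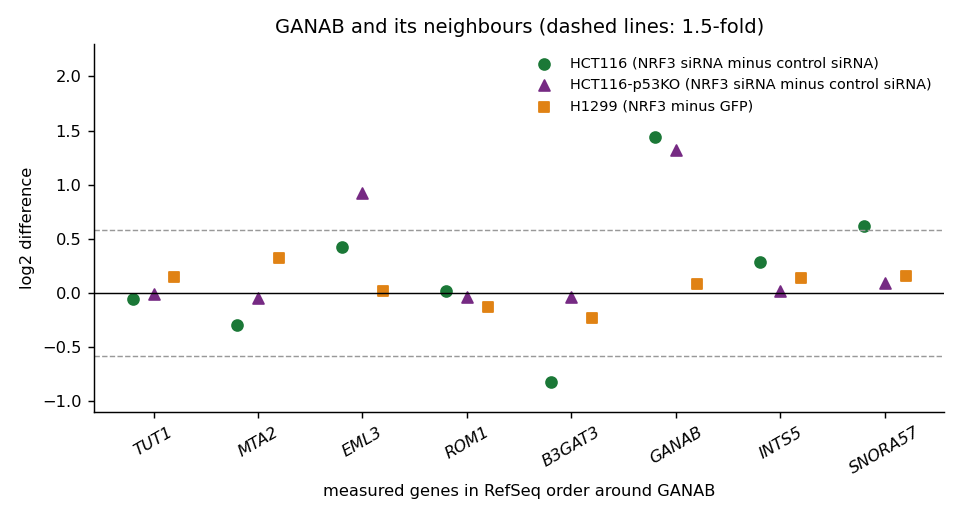
Log2 difference of GANAB and its 7 measured neighbours in RefSeq order, NRF3 siRNA minus control siRNA in HCT116 and HCT116-p53KO and NRF3 minus GFP in H1299. GANAB at 1.44 and 1.32 stands above INTS5 at 0.28 and 0.015 and B3GAT3 at -0.82 and -0.042.

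By Euclidean distance over the 3 NRF3 differences, among 10136 other genes at 6 or more on all arrays, the nearest to GANAB were SETD7 (0.15), KIF1C (0.51), ACAT1 (0.52) and ENSA (0.53). ZDHHC16, MTA1, LINC00173 and ATXN7L3B followed, at up to 0.59. GAA was at place 42, MOGS at 160, PRKCSH at 352 and UGGT1 at 9695. This order uses the values by which GANAB was chosen.

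In the wider pathway, a list of the cycle's lectins, glucosyltransferases and relatives, which includes members, had 6 genes tested. Of these 0 rose and 1 fell (all genes, 4.45% and 5.43%), UGGT1, which is already counted among the partners. Of 22 genes that build the glycan precursor, 0 rose and 1 fell (all genes, 4.45% and 5.43%). NUS1, a subunit of the enzyme that makes the dolichol carrier, fell by 0.95 ± 0.16 (SE; limma adjusted p = 6.94e-07), with differences of -1.13 and -0.77. DOLPP1, a dolichyl pyrophosphate phosphatase, differed by -0.73 and -0.11. In the oligosaccharyltransferase, which moves the glycan onto protein, 0 of 10 rose and 1 fell (all genes, 4.45% and 5.43%). RPN1, ribophorin I, differed by -0.55 and -0.52 (limma adjusted p = 0.0142), RPN2 by -0.51 and -0.25 and OSTC by 0.32 and 0.27. In H1299 TUSC3 (-0.90) and MAGT1 (-0.74), alternative subunits of this complex, were lower. List medians were -0.11 and 0.0013 for the precursor genes and -0.013 and 0.085 for the transferase.

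Among disulfide isomerases and oxidases 4 of 18 rose and 1 fell (all genes, 4.45% and 5.43%), with medians of 0.098 and 0.22. ERO1A, the oxidase that recharges disulfide isomerases, differed by 0.73 and 0.69 (limma adjusted p = 0.000489) and PRDX4, a peroxiredoxin, by 0.55 and 0.80 (limma adjusted p = 0.00102). TXNDC12 differed by 0.57 and 0.71 (limma adjusted p = 0.002), and QSOX1, a sulfhydryl oxidase named after its values were seen, by 0.66 and 0.28 (limma adjusted p = 0.0424). PDIA5, a disulfide isomerase, fell by 0.88 (limma adjusted p = 5.58e-06), with differences of -0.89 and -0.87.

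Among co-chaperones and other folding factors 3 of 21 rose and 0 fell (all genes, 4.45% and 5.43%), with medians of -0.11 and 0.042. They were the prolyl isomerases FKBP7 (0.63 and 0.94; limma adjusted p = 7.8e-05) and FKBP10 (0.50 and 0.86; limma adjusted p = 0.000896), and CDNF (0.74 and 0.26; limma adjusted p = 0.0266). SIL1, the nucleotide exchange factor of HSPA5, differed by 0.44 and 0.37 without passing (limma adjusted p = 0.0989). In H1299 17 of 20 expressed genes of the list were lower, with a median of -0.18, beside 5649 of all 11304 genes, with a median of 0.0.

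Of 25 degradation genes 0 rose and 4 fell (all genes, 4.45% and 5.43%), with medians of -0.035 and -0.02. DERL2, a retrotranslocation component, fell by 0.81 (limma adjusted p = 3.9e-05), with differences of -0.92 and -0.70. ERLEC1, a lectin, differed by -0.59 and -0.49 (limma adjusted p = 0.0141), DERL1 by -0.48 and -0.53 (limma adjusted p = 0.0239) and SEL1L, the ligase scaffold, by -0.54 and -0.43 (limma adjusted p = 0.0314). EDEM2, a paralog of EDEM1, differed by -0.10 and -0.075 and EDEM3 by -0.35 and 0.43.

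Of 11 sensors and factors of the unfolded protein response 3 rose and 0 fell (all genes, 4.45% and 5.43%), with medians of 0.15 and 0.056. ATF4, a stress-response transcription factor, differed by 0.74 and 0.71 (limma adjusted p = 0.000328) and by 0.52 in H1299. PPP1R15A, a phosphatase subunit, differed by 0.82 and 0.68 (limma adjusted p = 0.000178) and MBTPS1, a protease that activates ATF6, by 0.54 and 0.37 (limma adjusted p = 0.0482). PPP1R15B went the other way without passing, at -0.44 and -0.39 (limma adjusted p = 0.0904), and differed by 0.47 in H1299. HSPA5 lay at 0.12 and -0.022.

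**Figure D5:**
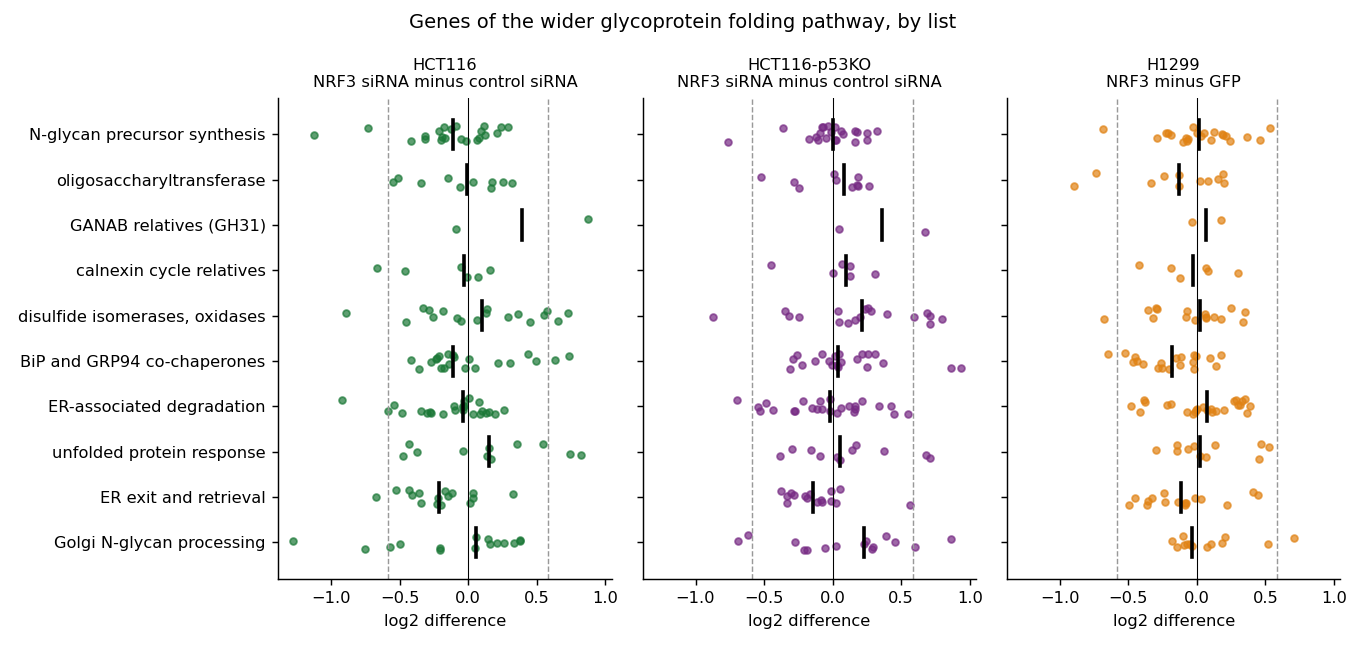
Log2 differences of expressed genes in 10 lists of the wider pathway, 1 point per gene and comparison, with list medians as black bars and dashed lines at 1.5-fold, 1 array per group. The degradation genes' medians lie at -0.035 and -0.02 in the HCT116 lines.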

How the data were processed

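From 100 ng of RNA per sample, whole-transcript Affymetrix arrays were run. The deposited values are log2 intensities, made by the authors with RMA in Expression Console, per the submitters' processing notes. RMA corrects background, quantile-normalizes and summarises probes, which can shift or shrink differences. The sources used here do not say which arrays went into one normalization. Precision is limited by array number.

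Of 33297 probe sets, 19460 had 1 gene symbol in the annotation table, 1754 several and 12083 none listed. Per gene (18417) the probe set with the highest mean was used. Differences were taken within a line for genes reaching 6 on either array and counted at 1.5-fold. limma 3.58.1 in R 4.3.3 was fitted over 4 arrays (NRF3 siRNA) and over 6 (more NRF3 minus less), with line as a block, two-sided, with Benjamini-Hochberg adjustment over all genes at 0.05, and was tested on simulated data. Its p-values set each estimate against the spread between lines. In the 4-array fit this is 1 spread pooled over all genes, so a gene's own disagreement between lines does not enter. Pairs of values follow the order HCT116, HCT116-p53KO.

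Named were the members, NFE2L3, up to 4 genes per list by mean siRNA difference and 2 by H1299 difference, 5 neighbours a side, close paralogs and the 8 nearest genes. CDH1, KRT8, KRT18 and other markers were named after their values were seen. Members and lists were chosen with earlier results of these data known. Alternatives were repeated quantile normalization, loess, probe-set means, other filters, thresholds and priors, and leaving out a line.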

Additional observations from a re-analysis of the deposited data

Results flagged for a closer look

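Among genes named from the pathway lists and expressed in the lines compared, 10 differed by at least 0.32 (log2) in opposite ways between lines. Each comparison is read here as more NRF3 against less. Values are NRF3 siRNA minus control siRNA in the HCT116 lines and NRF3 minus GFP in H1299, so 1 sign in both designs is opposite with respect to NRF3. With 1 array per group the difference between lines was not tested, and no measured member is among these genes.

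ATF4 had 0.74 in HCT116, 0.71 in HCT116-p53KO, 0.52 in H1299. In that order ERO1A had 0.73, 0.69 and 0.35, and SEC24C, a COPII coat subunit, had 0.33, 0.57 and 0.45. RPN1 had -0.55, -0.52 and -0.33, and KDELR1, a retrieval receptor, had -0.44, -0.33 and -0.33. EDEM3 had -0.35, 0.43 and -0.48. In HCT116 and H1299, MAGT1 had -0.34 and -0.74, FKBP11 had -0.42 and -0.52, and KDELR3 had -0.41 and -0.50. SEC24D, another COPII subunit, had -0.33 in HCT116-p53KO and -0.45 in H1299. Outside this count, KIF1C and ACAT1, among the 8 genes nearest to GANAB, also met the rule. In HCT116, HCT116-p53KO and H1299 KIF1C had 1.13, 1.39 and 0.47, and ACAT1 had 1.20, 1.01 and 0.42.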

How the results depend on the processing

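Under repeated quantile normalization, loess and probe-set means, the 108 alternative member differences moved by 0.084 or less, under the 0.23 by which lines vary. Those by probe-set means could not move, since each measured member has 1 probe set of its own. Only quantile normalization and loess therefore bear on the members' differences. Of 220 alternative list medians, 2 moved by more, those of GANAB's relatives without the expression filter (-0.074 in HCT116 and 0.011 in HCT116-p53KO), which adds genes under 6. Members past the size threshold, GANAB included, numbered 1 at 2-fold and 5 at a log2 threshold of 0.32 in HCT116. They numbered 1 and 4 in HCT116-p53KO, and 3 at 0.32 in H1299. The 1 at 2-fold was GANAB in each HCT116 line, which was chosen for its size. The shares of all genes at these 2 sizes are not given here, so these counts show only how the number depends on the threshold. With the threshold kept, repeated quantile normalization and loess gave 3 in HCT116, adding PRKCSH. In the 4-array limma fit repeated quantile normalization called 854 genes, not 1398, and 3 partners, and the 6-array prior called 0 and 0. Leaving out a line there leaves a value with no test. The 6-array limma fit called 0 genes with repeated quantile normalization (1613 at an unadjusted p of 0.05), 0 without HCT116 (719, with PRKCSH the 1 partner) and 0 without HCT116-p53KO (821, again PRKCSH alone), and 1398 genes and 3 partners without H1299, where it is the 4-array fit. Both limma fits pair the arrays of a line through the line block, and no fit with a replicate number as a block could be made, since each group has 1 array and no number.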

Other observations

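Of 15 Golgi genes that process N-glycans after the folding cycle, limma over 4 arrays called 2 that rose and 2 that fell (all genes, 4.45% and 5.43%), and list medians were 0.059 and 0.23. B4GALT1, a galactosyltransferase, was at 7.02 with NRF3 siRNA against 8.30 with control siRNA in HCT116, and 7.72 against 8.41 in HCT116-p53KO, and fell by 0.98 ± 0.16 (SE; limma adjusted p = 2.1e-07). ST6GAL1, a sialyltransferase, differed by -0.75 and -0.62 (limma adjusted p = 0.000768) and by 0.52 in H1299. MAN2A2, a Golgi mannosidase, differed by 0.37 and 0.60 (limma adjusted p = 0.0312) and MGAT4A, a branching enzyme, by 0.33 and 0.86 (limma adjusted p = 0.0047).

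Cargo receptors and coat genes of exit and retrieval were lower in both HCT116 lines for 12 of 16 genes, beside 4102 of all 13566 genes, with medians of -0.21 and -0.14, and 0 of 16 passed limma's test at an adjusted p of 0.05. LMAN1, a lectin that carries glycoproteins out, differed by -0.67 and -0.17 (limma adjusted p = 0.0801) and LMAN2L by -0.52 and -0.30 (limma adjusted p = 0.089).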
